A study of Homo sapiens with 8 samples.

Results

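The interferon response was measured in RD-ES cells in which USP6 had been induced. RD-ES is a Ewing sarcoma cell line, and USP6 is a ubiquitin-specific protease that acts as an oncogene in bone and soft tissue tumours. The comparison set cells given doxycycline and interferon alpha against cells given doxycycline alone, with 2 libraries in each group, which are 4 of the 8 libraries of the series and were chosen by their treatment labels. All libraries came from 1 stable pool of transfected cells in which a doxycycline-dependent promoter drives USP6, so every group carried the transgene, and none was a single clone. Doxycycline preceded interferon by 24 h, and interferon alpha was given at 1000 U/mL for 24 h. The labels give no total doxycycline time for the cells that received no interferon, so exposure to doxycycline may differ between the groups compared. The other 4 libraries, from cells given interferon alone and from untreated cells, 2 each, were used to set this response beside the one without doxycycline. No cells given doxycycline without the transgene were analysed here. The stated aim was to examine how USP6 and interferon affect gene induction.

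Type I interferons such as interferon alpha bind the receptor chains IFNAR1 and IFNAR2, which activate the Janus kinases JAK1 and TYK2. These phosphorylate STAT proteins, STAT2 among them, which join IRF9 in a complex that binds the interferon-stimulated response element (ISRE) in promoters and switches on antiviral, antigen presentation and chemokine genes. A different element, the gamma-activated sequence (GAS), serves interferon gamma above all, and the receptor is restrained by feedback inhibitors such as USP18.

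Read counts were analysed for 1 transcript row per gene symbol, the row with the highest total. These rows held 10158119 and 9304569 reads with doxycycline plus interferon and 11984196 and 11473662 reads with doxycycline alone. Levels are given as CPM, reads scaled to a common library size after trimmed mean normalisation, replicate 1 first, and 3 reads in a library correspond to between 0.25 and 0.326 CPM. Changes are log2 fold changes of doxycycline plus interferon over doxycycline alone, with their standard errors, and a gene is called when the Benjamini-Hochberg adjusted p of edgeR's quasi-likelihood test over 14601 genes is under 0.05. No pair of replicates agreed within sampling noise: chi-square divided by its degrees of freedom was 4.1 at the lowest and 8.57 at the highest. Whether replicates came from separate cultures is not stated in the labels, and p-values therefore measure the spread between these libraries only, which may be technical. Libraries also differed in how their counts varied with the GC content of genes. The measure was Spearman's rho across genes between GC content and a library's distance from the mean of the gene. It was -0.64 and 0.05 in the libraries with both treatments and -0.47 and 0.35 in those with doxycycline alone. Among genes not called, rho between GC content and the log2 change of the comparison was -0.31.

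USP6 was read at 409 and 377 CPM in cells with both treatments and at 569 and 558 CPM in cells with doxycycline alone. In the groups without doxycycline it stood at 9.17 and 10.3 CPM with interferon and at 9.88 and 8.77 CPM in untreated cells, so the transgene was read at high level in all 4 libraries of the comparison, as labelled. Between the groups with and without interferon its log2 change was -0.52 ± 0.08 (edgeR adjusted p = 0.0044). Parts of the gene resemble USP32 and TBC1D3 genes, with which it may exchange reads.

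Interferon changed 486 genes in the doxycycline-treated cells, 3.33% of those tested. Of these, 354 were higher (2.42%) and 132 lower (0.904%), and 2265 genes had an unadjusted p under 0.05. The median log2 change over all genes was -0.02. The higher genes moved further: 241 of them rose at least 2-fold, 124 at least 4-fold and 26 at least 16-fold, whereas 30 of the lower genes fell at least 2-fold and 3 at least 4-fold. The called-higher genes took 6.25% and 6.02% of all reads with both treatments and 2.15% and 2.1% with doxycycline alone. With a correction of each library for GC content and transcript length the split was 769 higher and 560 lower, so the share of lower calls was larger. Without doxycycline-only replicate 2 the counts were 235 higher and 55 lower. The lower count was smaller without each single library in turn, among them doxycycline-only replicate 1, replicate 1 of both treatments and either library of interferon alone. The libraries of interferon alone are not compared here but are part of the fit, and the cause was not tested.

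**Figure D1:**
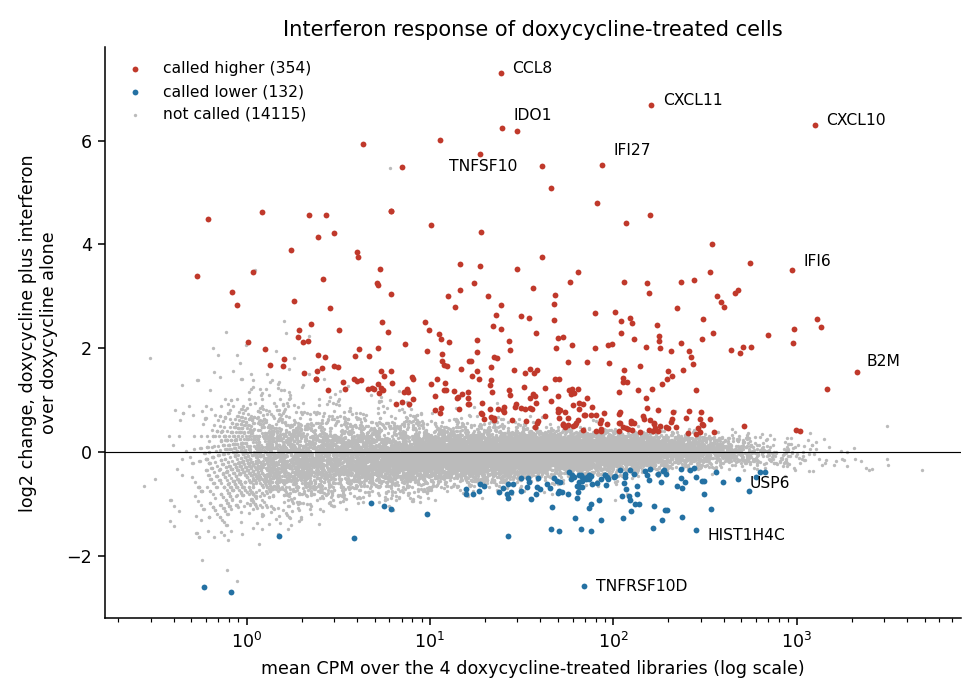
Each point is 1 of 14601 genes, with its mean CPM over the 4 doxycycline-treated libraries on a log axis and its log2 change, doxycycline plus interferon over doxycycline alone, on the vertical axis. The 354 genes called higher reach a log2 change of 7.30, while the 132 called lower mostly lie within 1 log2 unit of 0.

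The promoters of the genes that rose held the ISRE-type motif, GAAA and GAAA parted by any 2 bases, in a larger share than promoters at large. RefSeq windows from 250 bases before to 50 after the gene start (GRCh38.p14) were found for 11368 of the 14601 tested genes, and both strands were searched. The motif was present in 25.5% of 267 windows of called-higher genes and in 46.2% of 91 windows of those that rose at least 4-fold, against 0.943% of 106 windows of called-lower genes and 3.06% of all. The GAS-type motif TTCNNNGAA was present in 12.4% of called-higher, 3.77% of called-lower and 6.44% of all windows. The NF-kB consensus was present in 21.7%, 15.1% and 12.9% in the same order, and the E2F-type motif TTTNNCGC in 8.24%, 17.9% and 10.3%. Of the 95 ISRE-type matches in called-higher windows, 5 overlapped a GAS-type or NF-kB match. A match describes the letters of the window and does not show that a factor binds there.

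Stretches of 250 bases before the start are shown for 6 genes that rose and 1 that fell, because they carry these motifs in different numbers and combinations. Capitals mark ISRE-type and NF-kB matches on either strand in the first 6, and E2F-type matches in E2F1. CXCL10 (chr4:76023498-76023747, minus strand) has 1 ISRE-type match that begins 221 bases before the start and 2 NF-kB matches, which begin 177 and 122 bases before it. CXCL11 (chr4:76036071-76036320, minus strand) has 1 NF-kB match 76 bases before the start and no ISRE-type match by these letters. Its searched window, which is longer than the stretch shown, also held 2 GAS-type matches, a motif that the capitals do not mark. TNFSF10 (chr3:172523431-172523680, minus strand) has 1 ISRE-type match, 187 bases before the start. TAP1 (chr6:32853705-32853954, minus strand) has 2 overlapping ISRE-type matches and 1 NF-kB match. IFI6 (chr1:27672193-27672442, minus strand) has 3 ISRE-type matches and IFIT1 (chr10:89392373-89392622, plus strand) has 2. E2F1 (chr20:33686386-33686635, minus strand) has 4 E2F-type matches, of which 3 lie within the last 33 bases before the start.
CXCL10: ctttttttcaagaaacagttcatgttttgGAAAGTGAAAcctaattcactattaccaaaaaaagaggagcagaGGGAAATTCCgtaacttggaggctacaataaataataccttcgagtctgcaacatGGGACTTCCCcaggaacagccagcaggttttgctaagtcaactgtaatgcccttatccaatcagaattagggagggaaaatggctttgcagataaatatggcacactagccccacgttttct
CXCL11: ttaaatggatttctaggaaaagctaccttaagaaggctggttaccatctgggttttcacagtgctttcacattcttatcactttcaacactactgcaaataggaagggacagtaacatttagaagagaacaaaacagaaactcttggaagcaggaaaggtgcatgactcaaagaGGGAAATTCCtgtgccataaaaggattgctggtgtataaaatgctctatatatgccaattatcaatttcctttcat
TNFSF10: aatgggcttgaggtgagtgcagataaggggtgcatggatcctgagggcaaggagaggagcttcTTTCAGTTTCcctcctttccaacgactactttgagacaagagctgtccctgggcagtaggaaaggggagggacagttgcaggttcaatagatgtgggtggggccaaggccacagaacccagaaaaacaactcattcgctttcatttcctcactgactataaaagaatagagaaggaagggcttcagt
TAP1: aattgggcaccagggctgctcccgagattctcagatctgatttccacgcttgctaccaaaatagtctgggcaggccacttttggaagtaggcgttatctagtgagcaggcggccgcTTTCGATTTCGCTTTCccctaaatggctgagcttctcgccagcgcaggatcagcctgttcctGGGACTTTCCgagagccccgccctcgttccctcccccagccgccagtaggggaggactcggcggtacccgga
IFI6: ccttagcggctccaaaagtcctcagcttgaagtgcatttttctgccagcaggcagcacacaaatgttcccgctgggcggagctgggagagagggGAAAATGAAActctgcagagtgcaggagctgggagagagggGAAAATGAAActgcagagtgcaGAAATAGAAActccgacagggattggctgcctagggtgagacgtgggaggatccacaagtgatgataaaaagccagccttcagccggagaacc
IFIT1: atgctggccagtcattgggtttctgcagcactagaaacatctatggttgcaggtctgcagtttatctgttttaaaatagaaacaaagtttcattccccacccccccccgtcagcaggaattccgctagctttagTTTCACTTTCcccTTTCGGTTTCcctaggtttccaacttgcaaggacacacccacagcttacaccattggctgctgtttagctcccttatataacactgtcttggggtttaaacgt
E2F1: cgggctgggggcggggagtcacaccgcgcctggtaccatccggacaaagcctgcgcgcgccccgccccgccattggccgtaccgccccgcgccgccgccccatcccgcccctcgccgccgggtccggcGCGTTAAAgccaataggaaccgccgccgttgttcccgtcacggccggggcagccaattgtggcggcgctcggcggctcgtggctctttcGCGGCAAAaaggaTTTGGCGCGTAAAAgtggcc

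**Figure D2:**
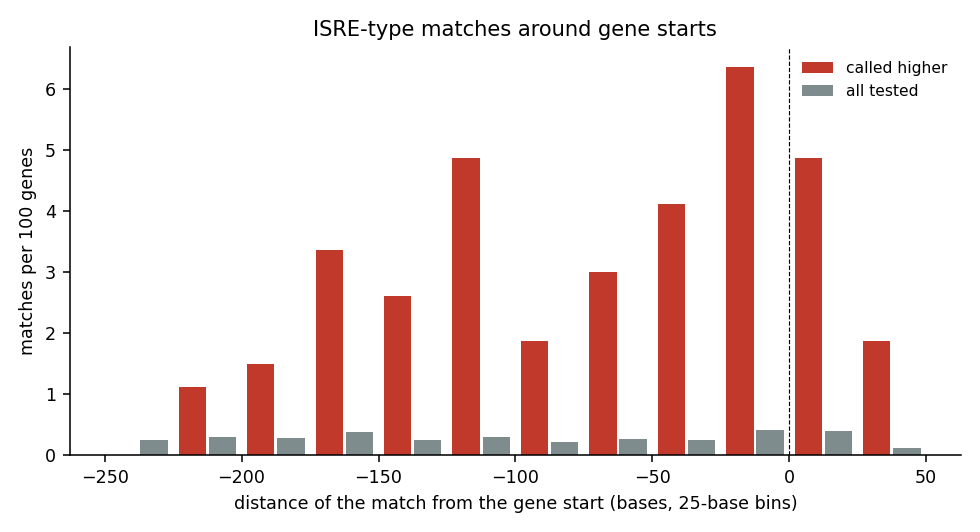
Bars give ISRE-type matches per 100 genes in 25-base bins of distance from the gene start, for genes called higher and for all tested genes. Matches of called-higher genes lie throughout the 225 bases before the start and just after it, with the highest bar, 6.37 per 100 genes, in the last 25 bases before the start, where all tested genes had 0.422.

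Among the signalling components, STAT2 and IRF9 rose and the receptor chains IFNAR1 and IFNAR2 and the kinases JAK1 and TYK2 were not called. Of 15 tested receptor, Janus kinase and STAT genes, 4 rose and none fell, with a median log2 change of 0.25. STAT2 rose by 1.91 ± 0.12 and IRF9, its DNA-binding partner, by 1.41 ± 0.13 on the log2 scale, and the libraries of the 2 groups did not overlap for either gene. STAT5A, a STAT best known from cytokine receptors, rose by 1.31 ± 0.27 (edgeR adjusted p = 0.022) and lost that call without either doxycycline-only library or without replicate 2 of both treatments. IFNAR1 had 58.9 and 53.8 CPM with both treatments and 62.1 and 51.8 CPM with doxycycline alone, and IFNAR2 had 18.9 and 21.9 CPM against 20 and 20 CPM. The log2 changes were -0.02 ± 0.15 for IFNAR1, 0.03 ± 0.16 for IFNAR2, 0.16 ± 0.10 for JAK1, -0.33 ± 0.21 for TYK2 and 0.21 ± 0.08 for STAT3, none of them called.

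Of 7 interferon regulatory factors tested, 4 rose and 3 were not called, with log2 changes from -1.57 to 2.64. IRF1, an activator that binds ISRE-like elements, had 37.3 and 41.2 CPM with both treatments and 5.17 and 7.39 CPM with doxycycline alone, a log2 change of 2.64 ± 0.19. IRF7, which amplifies type I interferon production, rose by 1.83 ± 0.29, and IRF2, which competes with IRF1 for its sites, by 0.60 ± 0.13 (edgeR adjusted p = 0.029). The IRF2 call was lost without any single library of the 4 compared. Among 10 feedback inhibitors only USP18, which displaces JAK1 from the receptor, was called: it had 58.9 and 67.7 CPM with both treatments and 12.8 and 13 CPM with doxycycline alone (log2 2.29 ± 0.14, edgeR adjusted p = 1.6e-06). SOCS3 had 4.03 and 6.08 CPM with both treatments and 5.59 and 3.99 CPM with doxycycline alone. Of the 10 interferon genes in the table, IFNG among them, none had enough reads to be tested, and their summed level was 1.41 and 0.434 CPM with both treatments and 0.501 and 0.68 CPM with doxycycline alone.

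**Figure D3:**
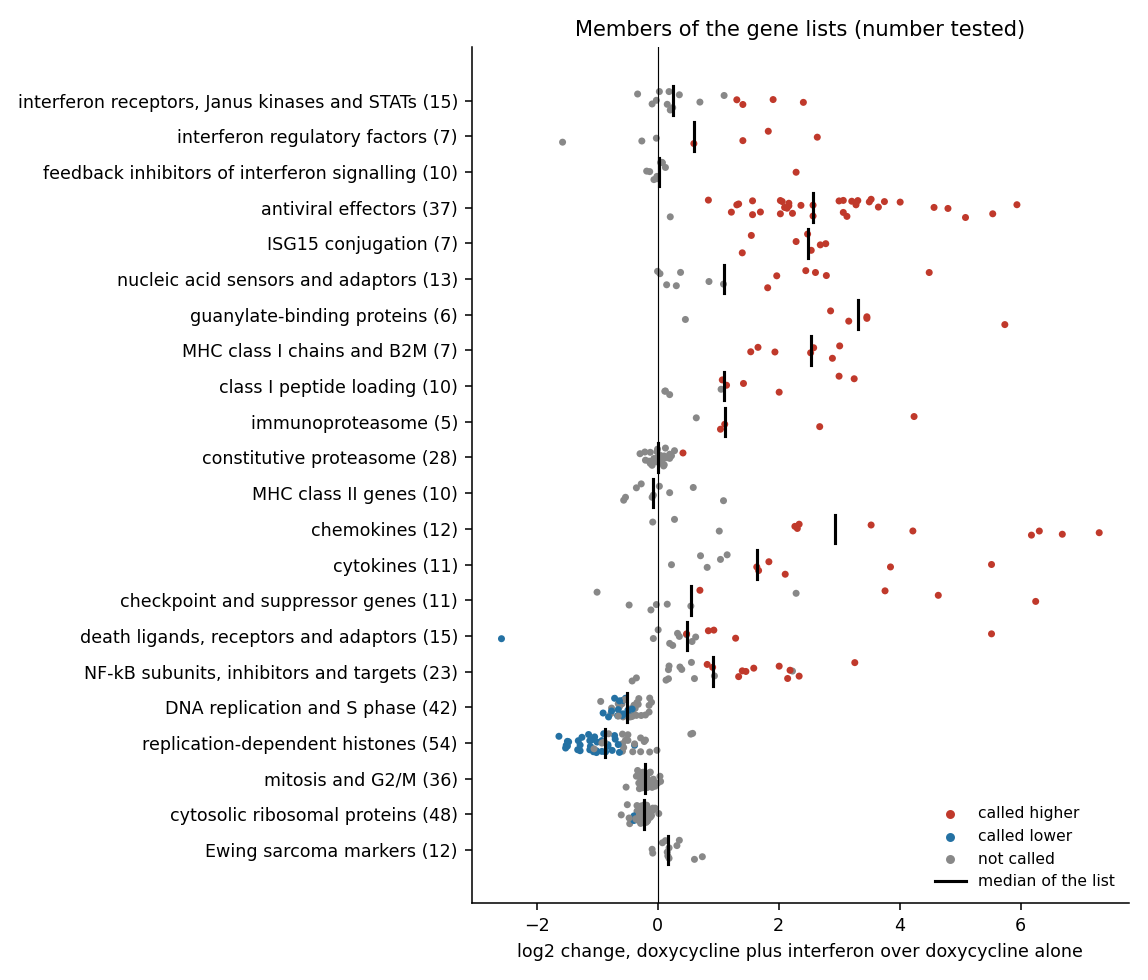
Each point is 1 tested member of a gene list, placed by its log2 change (doxycycline plus interferon over doxycycline alone), coloured by its call, with the list's median as a black bar and the number tested in parentheses. Antiviral, ISG15, guanylate-binding, MHC class I and chemokine genes lie to the right, with medians between 2.48 and 3.31, while replication genes and histones lie to the left, with medians of -0.51 and -0.87.

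Antiviral effectors rose almost throughout. Of 37 tested, 36 rose and none fell, with a median log2 change of 2.57 beside -0.02 for all genes and 2.42% of all genes called higher. RTP4, a chaperone of membrane receptors that restrains some flaviviruses, had 162 reads with both treatments and 3 with doxycycline alone, a ratio of 67 (exact 95% interval 22.5 to 329, counting error only). IFI27, a mitochondrial and nuclear envelope protein, had 159 and 180 CPM with both treatments and 3.5 and 3.74 CPM with doxycycline alone (log2 5.54 ± 0.14, edgeR adjusted p = 2e-09). These groups lay far apart, with the lowest treated library above the highest one without interferon.

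XAF1, which counters inhibitors of apoptosis, had 94.2 and 83.7 CPM with both treatments and 2.5 and 2.72 CPM with doxycycline alone (log2 5.09 ± 0.16). The dynamin-like GTPases rose as well: MX2, which blocks HIV at the nuclear pore, had 164 and 152 CPM against 5.67 and 5.61 CPM with doxycycline alone, and MX1, which blocks influenza virus, had 1071 and 990 CPM against 83.8 and 80.1 CPM. RSAD2, the radical enzyme viperin, rose by 4.57 ± 0.14 on the log2 scale. Of the oligoadenylate synthetases, OAS2 rose by 4.01 ± 0.10, OAS1 by 2.57 ± 0.10 and OAS3 by 2.37 ± 0.17. IFIT1 and IFIT2, which bind viral RNA ends, rose by 3.13 ± 0.13 and 3.28 ± 0.11, and ADAR, the editing enzyme that marks self RNA, by 1.22 ± 0.09. The members named here kept their calls when any single library was left out.

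The conjugation pathway of ISG15, a ubiquitin-like protein attached to newly made proteins, rose as a whole, with 7 of 7 tested members called and a median of 2.48. UBE2L6, its E2 enzyme, had 376 and 403 CPM with both treatments and 53.8 and 59.7 CPM with doxycycline alone. The E1 enzyme UBA7 rose by 2.54 ± 0.17 and the ligase HERC5 by 1.55 ± 0.10 on the log2 scale. ISG15 itself had 148 and 284 CPM with both treatments and 27.3 and 50.1 CPM with doxycycline alone, so its replicates differed within both groups while the groups stayed apart (log2 2.48 ± 0.31, edgeR adjusted p = 0.00057). Of 13 nucleic acid sensors and adaptors, 6 rose and none fell. DDX58, which encodes the RNA sensor RIG-I, rose by 2.79 ± 0.11, IFIH1, which encodes MDA5, by 2.45 ± 0.11, TLR3 by 1.97 ± 0.16 and the DNA sensor IFI16 by 1.82 ± 0.09. AIM2, the DNA sensor of an inflammasome, had 23 reads with both treatments and 1 with doxycycline alone, a ratio of 28.6 (exact 95% interval 4.64 to 1176). The ratio was 14.4 without doxycycline-only replicate 2 and at least 4.72-fold (a lower bound that takes the doxycycline-only library as 3 reads) without replicate 1, and its call was lost without any single library of the 4 compared.

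Guanylate-binding proteins, GTPases that attack the vacuoles of intracellular pathogens, had the highest median of these families, 3.31, with 5 of 6 tested members called. GBP5 had 42.4 and 31 CPM with both treatments and 0.751 and 0.595 CPM with doxycycline alone (log2 5.74 ± 0.30, edgeR adjusted p = 3.5e-07). GBP1 and GBP4 each rose by 3.46 on the log2 scale (SE 0.11 and 0.17). Members of this family are similar in sequence, and how the authors' counting treated shared reads is not given. Of 6 apolipoprotein L genes, 4 rose, among them APOL3 at 14.1 and 13.5 CPM against 0.334 and 0.255 CPM with doxycycline alone. PARP14 and PARP9, ADP-ribosyltransferases of the interferon response, rose by 2.10 ± 0.10 and 2.30 ± 0.10. Of 14 tested genes on the list of PARP family members and DTX3L, 6 were called, all higher. TRIM22, an antiviral ubiquitin ligase, rose by 4.42 ± 0.13 and was 1 of 8 higher among 11 tested members of the TRIM list. GLG1, a Golgi glycoprotein with high counts, had 1106 and 1263 CPM with both treatments and 906 and 894 CPM with doxycycline alone; its log2 change of 0.40 ± 0.09 (edgeR adjusted p = 0.04) lost its call in 6 of the 8 fits that left out 1 library, those without either doxycycline-only library among them.

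Antigen presentation by MHC class I rose from the chains to the proteasome, while MHC class II was not called. All 7 class I chains and B2M tested were higher, with a median log2 change of 2.53. B2M, the invariant light chain, had 3349 and 2968 CPM with both treatments and 1140 and 1032 CPM with doxycycline alone (log2 1.54 ± 0.10). HLA-B had 645 and 712 CPM against 87.7 and 95.3 CPM, a log2 change of 2.89 ± 0.12, and HLA-E, a ligand of natural killer cell receptors, rose by 2.53 ± 0.12. HLA genes share long stretches of sequence, so reads could be split between them.

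Of 10 peptide loading genes, 6 rose. TAP1, a chain of the peptide transporter, had 273 and 280 CPM with both treatments and 27.8 and 30.6 CPM with doxycycline alone (log2 3.25 ± 0.12). NLRC5, the transactivator of class I genes, had 33 and 40.8 CPM against 4.09 and 5.1 CPM, and ERAP2, an aminopeptidase that trims peptides, rose by 2.01 ± 0.13. The immunoproteasome subunits PSMB9 and PSMB8 rose by 4.24 ± 0.26 and 2.68 ± 0.16, 2 of the 4 higher among 5 members. The PSMB9 change was 4.83 without doxycycline-only replicate 2. In contrast, 1 of 28 subunits of the constitutive proteasome was called, a call lost in 6 of the 8 fits that left out 1 library, and their median was 0.01. None of 10 class II genes was called by edgeR or by DESeq2, 2 had an unadjusted p under 0.05, and their median was -0.08. CIITA, the class II transactivator, had 3 reads over the libraries with both treatments and 4 over those with doxycycline alone.

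The largest single changes were those of chemokines. Of 12 tested, 9 rose and none fell, with a median of 2.94. The ligands of CXCR3, which draw activated T cells and natural killer cells, stood out: CXCL10 had 2785 and 2176 CPM with both treatments and 34.9 and 27.7 CPM with doxycycline alone (log2 6.31 ± 0.21, edgeR adjusted p = 1.1e-08). CXCL11 had 365 and 272 CPM against 3 and 3.14 CPM (log2 6.69 ± 0.18), and CXCL9 had 64.5 and 52.9 CPM against 0.751 and 0.85 CPM (log2 6.18 ± 0.23). CCL8, a ligand of monocyte receptors, had the largest change of all named genes, with 54 and 42.6 CPM against 0.417 and 0.17 CPM with doxycycline alone (log2 7.30 ± 0.34). Without doxycycline-only replicate 1 its log2 change was 8.06, and without replicate 2 it was 6.82.

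The other called chemokines had smaller changes. CCL2, which draws monocytes, had 18.7 and 18.2 CPM with both treatments and 3.84 and 3.82 CPM with doxycycline alone. CCL4, CCL5 and CCL20 rose by 3.53 ± 0.30, 2.31 ± 0.32 and 4.22 ± 0.42 on the log2 scale, and IL8, the neutrophil attractant CXCL8, by 2.34 ± 0.31. The CCL20 change was 4.97 without doxycycline-only replicate 1. In every one of these genes both libraries with interferon lay above both without it.

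**Figure D4:**
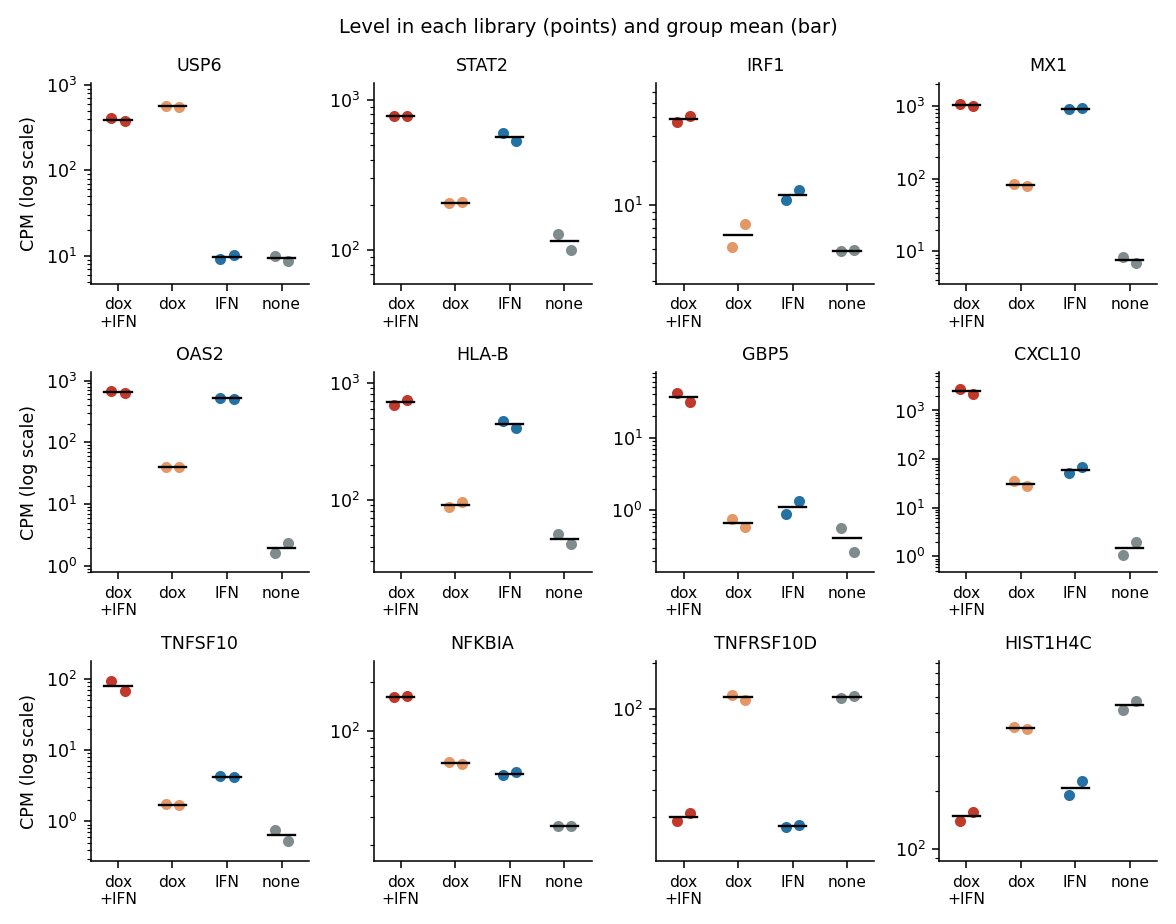
Points are the CPM of each library on a log axis, and bars are group means, for 12 genes in cells with doxycycline plus interferon, doxycycline alone, interferon alone and no treatment. GBP5, CXCL10 and TNFSF10 are highest where both treatments were given (means of 36.7, 2480 and 80 CPM), while MX1 and OAS2 are high in both groups with interferon.

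Among immune suppressors, 4 of 11 tested genes rose. IDO1, which breaks down tryptophan, had 54.9 and 42.7 CPM with both treatments and 0.667 and 0.595 CPM with doxycycline alone (log2 6.25 ± 0.25, edgeR adjusted p = 4.9e-08). CD274, which encodes PD-L1, had 8.37 and 6.73 CPM against 0.584 and 0.51 CPM, a log2 change of 3.76 ± 0.44. LGALS9, a galectin that binds the T cell receptor TIM-3, rose by 4.64 ± 0.36. CD47, the signal that holds off phagocytes, rose by 0.70 ± 0.11 and lost its call without doxycycline-only replicate 2. Of 11 cytokines, 6 rose and none fell, but the count was 3 without each of the 4 libraries compared. TNFSF13B, the B cell factor BAFF, had 7.86 and 7.06 CPM with both treatments and 0.584 and 0.425 CPM with doxycycline alone. TNF had 4.64 and 4.89 CPM against 1.17 and 1.87 CPM (log2 1.64 ± 0.36, edgeR adjusted p = 0.029), a call lost when any of the 4 was left out.

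Of 12 complement genes, 5 rose. The central component C3 had 35 and 39.6 CPM with both treatments and 7.09 and 6.8 CPM with doxycycline alone (log2 2.42 ± 0.20). Factor B (CFB) rose by 1.94 ± 0.27, and so did SERPING1, an inhibitor of the first step of the cascade, by 1.74 ± 0.11.

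The death ligand TRAIL and its receptors moved in different ways. TNFSF10, which encodes TRAIL, had 91.8 and 68.1 CPM with both treatments and 1.75 and 1.7 CPM with doxycycline alone (log2 5.52 ± 0.22, edgeR adjusted p = 3.6e-08). The receptors that signal death were not called: TNFRSF10A had 15.8 and 18.8 CPM against 18.1 and 16.2 CPM, and TNFRSF10B had 271 and 274 CPM against 214 and 220 CPM (log2 0.33 ± 0.09, edgeR adjusted p = 0.083). TNFRSF10D, a decoy receptor that binds TRAIL without signalling death, fell to 18.8 and 21.1 CPM with both treatments, against 124 and 114 CPM with doxycycline alone. Its log2 change of -2.58 ± 0.11 (edgeR adjusted p = 4.9e-08) was called without each single library in turn, and it was the only lower member among 15 death ligands, receptors and adaptors, of which 5 rose.

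FAS, another death receptor, rose by 0.84 ± 0.14, the kinase RIPK2 by 1.29 ± 0.14 and MLKL, which executes necroptosis, by 0.93 ± 0.16; without either doxycycline-only library the higher count of this list was 3 and MLKL was not called. Of 14 caspase and inflammasome genes, 3 rose, among them the inflammatory caspases CASP1, with 12.7 and 11 CPM against 0.417 and 0.51 CPM, and CASP4, with a log2 change of 1.22 ± 0.11. Of 19 apoptosis regulators, 4 rose, and they act in opposite ways: BIRC3 (1.59 ± 0.17) and BIRC2 (0.64 ± 0.10) inhibit apoptosis, PMAIP1 (0.62 ± 0.09) and XAF1 promote it. BIRC2 lost its call without doxycycline-only replicate 2.

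Genes of the NF-kB system, which tumour necrosis factor and other inflammatory signals switch on, rose in 11 of 23 cases and fell in none, with a median of 0.91. The inhibitor NFKBIA, itself an NF-kB target, had 160 and 163 CPM with both treatments and 64.4 and 63.2 CPM with doxycycline alone (log2 1.34 ± 0.09, edgeR adjusted p = 1.7e-06). The inhibitor TNFAIP3 rose by 2.01 ± 0.25 and the subunit NFKB1 by 0.82 ± 0.12, while NFKBIZ, which modulates NF-kB in the nucleus, had 15.9 and 15.6 CPM against 5.84 and 6.12 CPM. Of 10 adhesion molecules tested, 3 rose and none fell, with a median log2 change of 0.30 and a lowest one of -0.94. Of the 3, SELE had 31.9 and 31.3 CPM against 3.59 and 2.97 CPM, ICAM1 77.7 and 85.6 CPM against 15.4 and 20.4 CPM, and VCAM1 32.2 and 27 CPM against 8.34 and 4.93 CPM with doxycycline alone. The 7 endothelial markers on a list of their own were too low to be tested, with a summed level of 2.52 and 1.3 CPM with both treatments and 1.67 and 2.38 CPM with doxycycline alone. SOD2, a mitochondrial superoxide dismutase, rose by 0.91 ± 0.15 and lost its call without doxycycline-only replicate 2. Among called-higher genes at large 21.7% of promoter windows held the NF-kB consensus, against 12.9% of all windows. On this list, with members called or not, 45% of 20 windows did. The list includes NF-kB targets by design, so its share does not describe the response.

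MMP13, a collagenase, had 25.4 and 19.3 CPM with both treatments and 0.167 and 0.51 CPM with doxycycline alone (log2 6.01 ± 0.46, edgeR adjusted p = 1.9e-05). Its log2 change was 5.43 without doxycycline-only replicate 1 and 6.97 without replicate 2, and it was 1 of 2 called among 12 metalloproteases and their inhibitors. The count was 1 without either doxycycline-only library, without replicate 2 of both treatments and without either library of interferon alone. Of 18 lysosomal genes, 5 rose, among them LAMP3 (2.37 ± 0.14), CD68 (2.34 ± 0.21) and the protease CTSS (1.92 ± 0.20), and their median was 0.03; without doxycycline-only replicate 2 the count was 3. CD68 and CTSS are also abundant in macrophages. Of 9 macrophage markers, 3 were testable and none was called, and their summed level was 8.67 and 8.36 CPM with both treatments and 7.76 and 6.8 CPM with doxycycline alone, with MRC1 and TYROBP at 0 reads in all 4 libraries. Of 9 lymphocyte markers 2 were testable and none was called, with sums of 2.82 and 2.5 CPM against 2.84 and 3.23 CPM.

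Histones and replication genes made up part of the genes that fell. Of 54 tested replication-dependent histone genes, which cells transcribe in S phase, 33 fell and none rose, with a median log2 change of -0.87 beside 0.904% of all genes called lower. HIST1H4C had 140 and 155 CPM with both treatments and 421 and 415 CPM with doxycycline alone, a log2 change of -1.51 ± 0.10 (edgeR adjusted p = 2.9e-06). HIST1H3B had 96.3 and 114 CPM against 233 and 292 CPM, and HIST1H2BD had 128 and 151 CPM against 319 and 347 CPM. The largest change of the group was that of HIST1H4A, at 9.58 and 16.5 CPM against 33.6 and 46.8 CPM. The other histone genes among the 15 lowest changes, HIST1H4F, HIST1H2BN, HIST1H4L, HIST1H4D, HIST1H2AM, HIST1H2AH and HIST1H4H, had log2 changes between -1.52 and -1.28. Members of this family are almost identical in sequence, which makes the level of any one of them uncertain. The list sum was 3892 and 5094 CPM with both treatments and 7382 and 9004 CPM with doxycycline alone, which do not overlap.

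Of 42 genes of DNA replication and S phase, 16 fell and none rose, all 42 had a log2 change below 0, and their median was -0.51. Of all 14601 genes tested, 7847 had a change below 0. MCM2, a subunit of the replicative helicase, had 284 and 352 CPM with both treatments and 448 and 506 CPM with doxycycline alone (log2 -0.59 ± 0.11, edgeR adjusted p = 0.013). RRM2, which makes deoxynucleotides, had 178 and 168 CPM against 279 and 265 CPM, and the sliding clamp PCNA had 206 and 191 CPM against 298 and 293 CPM. CDC6, which loads the helicase, CCNE2, a cyclin of S phase entry, and TK1, a thymidine kinase, fell by 0.71, 0.76 and 0.90 on the log2 scale (SE 0.15, 0.16 and 0.21). E2F1, a factor that drives these genes and whose promoter is shown above, had 21.6 and 33.3 CPM against 44.4 and 51.6 CPM (log2 -0.81 ± 0.19, edgeR adjusted p = 0.046). RRM2 lost its call without doxycycline-only replicate 1, PCNA without any of the 4 libraries compared, and MCM2, CDC6, CCNE2, TK1 and E2F1 without several. TK1 and E2F1 also lost theirs with a stricter filter on low counts and with summed transcript rows. With only the libraries compared, TK1, E2F1 and MCM2 were not called, and with a replicate block CDC6, CCNE2 and TK1 were not. The E2F-type motif was present in 59.5% of 37 promoter windows of this list, with members called or not, and in 10.3% of all. Among called-lower genes at large the share was 17.9%. The list is made of genes of the kind that E2F1 drives, so its share does not describe the response. In bulk libraries, fewer cells in S phase and less of these RNAs per cell cannot be told apart.

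The counts of lower genes depended on single libraries. Without replicate 1 of both treatments, 19 histone genes and 3 replication genes were called lower, with medians of -0.62 and -0.43. The replication count was 3 without doxycycline-only replicate 1 and 5 without replicate 2. Replicate 1 of both treatments is the library with the strongest relation to GC content (rho -0.64), and after correcting for GC content and length 34 histone genes and 35 replication genes were called lower, with medians of -0.63 and -0.50. Of 36 genes of mitosis and G2/M, 0 were called by edgeR or DESeq2, 14 had an unadjusted p under 0.05, 12 were called lower with that correction, and their median without it was -0.21. MKI67, a marker of cycling cells, had 291 and 325 CPM with both treatments and 388 and 372 CPM with doxycycline alone (log2 -0.30 ± 0.09, edgeR adjusted p = 0.11). None of 16 cyclin-dependent kinase inhibitors and p53 targets was called by edgeR or DESeq2, 5 had an unadjusted p under 0.05, and 3 were called higher and 2 lower with the correction for GC content.

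Of the named lower genes outside the histone and replication lists, TNFRSF10D is described above. STAB1, a scavenger receptor, was at 1.31 and 2.39 CPM with both treatments and 5.67 and 6.03 CPM with doxycycline alone, and NT5DC2, a protein of the nucleotidase family, was at 21.1 and 31.2 CPM against 67.7 and 82.6 CPM. STAB1 lost its call without doxycycline-only replicate 2 and without replicate 1 of both treatments. BGLAP, which encodes osteocalcin, had 0.706 and 0.76 CPM against 1.92 and 2.63 CPM (edgeR adjusted p = 0.043), and its call was lost in each of the 8 fits that left out 1 library. Of 48 cytosolic ribosomal protein genes 2 fell, RPLP0 and RPL23, each by 0.39 on the log2 scale (SE 0.09). Both lost their calls without either doxycycline-only library. Of the 48, 47 had a change below 0, with a median of -0.22, beside 7847 of all 14601 genes tested.

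The 19 chaperones of the endoplasmic reticulum and the 24 genes of cholesterol synthesis and uptake had medians of 0.12 and -0.16, with no call by edgeR or DESeq2 and with 1 and 8 genes at an unadjusted p under 0.05. Of 21 targets of the stress factor ATF4, 6 rose, among them ATF3 at 34.7 and 30.6 CPM with both treatments and 9.26 and 11.8 CPM with doxycycline alone; the count was 3 without either doxycycline-only library or without replicate 2 of both treatments. None of 12 Ewing sarcoma markers was called by edgeR, with a median of 0.18, while 4 had an unadjusted p under 0.05 and DESeq2 called 2 higher. The fusion partner FLI1, which also covers reads of the EWSR1-FLI1 fusion, had 59.4 and 61.1 CPM with both treatments and 58.7 and 49.4 CPM with doxycycline alone. CD99, the surface marker used to diagnose this tumour, was read at low level, 2.22 and 2.61 CPM against 2.25 and 2.89 CPM. How the authors' counting treated shared reads is not given, so this level may not measure how strongly the cells express CD99. Of 7 fibroblast markers COL3A1 alone was called, with a log2 change of -0.78 ± 0.19 (edgeR adjusted p = 0.045), and that call was lost without any single library of the 4.

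The response was set beside that of cells without doxycycline, which shares no library with it. There 237 genes were higher (1.62%) and 73 lower (0.5%). The responses shared 208 higher genes, 58.8% of those higher with doxycycline and 87.8% of those higher without it, and 61 lower genes, 46.2% and 83.6%. No gene was called in opposite directions, and 350 of the 354 genes higher with doxycycline had a change above 0 without it. Of 37 antiviral effectors 36 rose without doxycycline too, while 3 of 12 chemokines and 3 of 23 NF-kB genes did. The median log2 change of the chemokines was 2.32 without doxycycline and 2.94 with it, and that of the NF-kB genes 0.34 and 0.91. Some chemokines had few reads without doxycycline, for example CXCL9 with 10 reads with interferon alone and 2 untreated. Counts of calls do not test a difference between the responses, for which the interaction was fitted. No chemokine or NF-kB gene of these lists was called in the interaction.

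By that test 25 genes responded differently (0.171%): 24 had a smaller log2 change with doxycycline than without, and WARS a larger one (0.164% and 0.00685% of genes tested). Of the 24, 17 are on the antiviral list. The count of 25 was 15, 11, 9, 14 and 15 without untreated replicate 1, untreated replicate 2, interferon-alone replicate 1, interferon-alone replicate 2 and doxycycline-only replicate 1, in that order. OAS2 had 679 and 630 CPM with doxycycline plus interferon and 40.5 and 40.8 CPM with doxycycline alone, and 515 and 511 CPM with interferon alone and 1.61 and 2.33 CPM untreated. Its log2 change was 4.01 ± 0.10 with doxycycline and 8.01 ± 0.14 without, a difference of -4.0 ± 0.19 (edgeR adjusted p = 2.1e-06). Levels with interferon differed less between the settings than levels without it. The order was the same for MX1, with 1071 and 990 CPM against 83.8 and 80.1 CPM in doxycycline-treated cells and 899 and 928 CPM against 8.26 and 6.98 CPM without doxycycline (difference -3.25 ± 0.15, edgeR adjusted p = 2.1e-06). IRF9 had 68.6 and 78.4 CPM against 27.8 and 27.7 CPM with doxycycline and 71.4 and 59.1 CPM against 5.89 and 6.44 CPM without (difference -1.99 ± 0.20, edgeR adjusted p = 0.0014). For EPSTI1, OAS1, IFI6, IFI44L, IFIT1 and HERC6 the differences were -3.75, -2.43, -2.42, -2.14, -2.13 and -1.87. These 9 genes kept the call in every alternative run for them, including each library left out, and 15 other named genes lost it in at least 1. Of the 24 genes, 21 had a promoter window, and 61.9% of these held the ISRE-type motif. The share was 63.3% of 30 windows on the antiviral list, which holds 17 of the 24, and 3.06% of all windows.

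**Figure D5:**
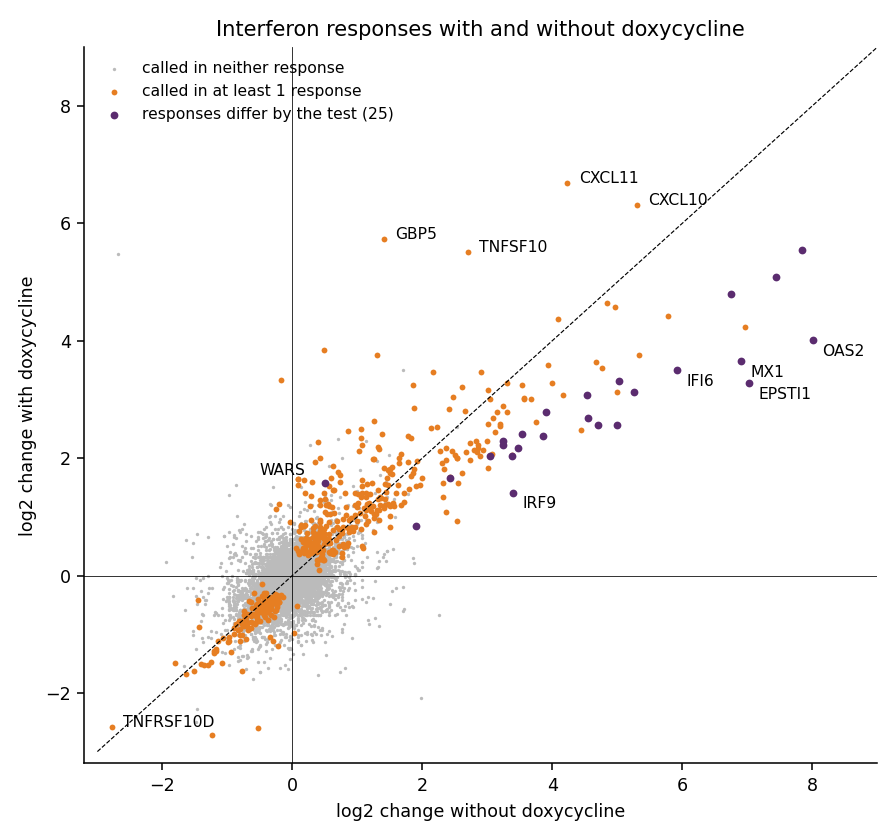
The log2 change of each gene with interferon in doxycycline-treated cells (vertical) is plotted against its change without doxycycline (horizontal), for the 14573 genes with over 3 reads both in doxycycline-only and in untreated cells, so that 25 called-higher genes are left out; the dashed line marks equal changes. The purple points, the 25 genes whose responses differ by the test, lie below the line except WARS, while GBP5, TNFSF10, CXCL10 and CXCL11 lie above it without a call.

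WARS, the tryptophanyl-tRNA synthetase, had 173 and 170 CPM with doxycycline plus interferon and 61.1 and 53.8 CPM with doxycycline alone, and 73.9 and 93.1 CPM with interferon alone and 55.1 and 62.3 CPM untreated. The difference of the log2 changes was 1.07 ± 0.17 (edgeR adjusted p = 0.041), and the call was lost without each library in turn except replicate 2 of interferon alone. WARS was the one of 20 aminoacyl-tRNA synthetases called in the doxycycline-treated cells.

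Other genes had their highest level where both treatments were given, but for these the test of the difference did not reach a call. TNFSF10 averaged 80 CPM with both treatments, 1.73 CPM with doxycycline alone, 4.25 CPM with interferon alone and 0.648 CPM untreated, and the difference of its log2 changes was 2.83 ± 0.51 (edgeR adjusted p = 0.089). GBP5 averaged 36.7, 0.673, 1.12 and 0.419 CPM in the same order, a difference of 4.33 ± 0.76 (edgeR adjusted p = 0.072). CXCL10 averaged 2480, 31.3, 60.3 and 1.51 CPM, and CXCL11 318, 3.07, 3.67 and 0.184 CPM, with differences of 1.01 ± 0.48 and 2.46 ± 0.99 (edgeR adjusted p = 1 for both). IRF1 averaged 39.2, 6.28, 11.7 and 4.88 CPM, a difference of 1.38 ± 0.28 (edgeR adjusted p = 0.19). Direct tests between the groups with both treatments and with interferon alone were not made here. TNFRSF10D also fell without doxycycline, to 17.1 and 17.8 CPM with interferon alone, against 118 and 121 CPM untreated, with a difference of 0.20 ± 0.15.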

How the data were processed

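Total RNA of RD-ES cells was sequenced in 8 libraries, 2 per group, with a stranded total RNA kit per the labels' protocols. The authors deposited 1 table of read counts per transcript row. The submitters' processing notes name hg19, edgeR and CASAVA 1.8.2, with no counting program or strand setting. The table has 34917 rows for 22257 gene symbols, of which 30.4% have several rows. The row with the highest total over the 8 libraries was used for each symbol, which kept 57.1% of reads. These held 9304569 to 11984196 reads per library, and intervals cover counting error only.

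The counts were fitted with edgeR 4.0.16 in R 4.3.3: trimmed mean normalisation, the default filter on low counts, 1 mean per group over all 8 libraries, quasi-likelihood F tests and Benjamini-Hochberg adjustment over 14601 genes, with a threshold of 0.05. CPM use the normalised library sizes. The difference between the responses was the interaction contrast. DESeq2 1.42.0, other scalings, filters, sample sets, summed rows, a replicate block, a loess correction (span 0.3) for GC content and transcript length, and the omission of each library were alternatives; the GC correction together with the replicate block was chosen after seeing the data. The fit was tested on simulated data.

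Named genes were USP6, the 15 highest and 15 lowest changes and the 10 called genes with the highest level in the group with both treatments, among called genes with at least 1 CPM, the genes of the interaction, the 4 members of each described list with the smallest p, and fixed members of the pathway. Other list members (for example ISG15, RSAD2, IFIT2, UBA7, TLR3, the CCL genes after CCL8, IL8, CFB, MLKL, TNFAIP3, NFKBIZ, NFKB1, SOD2, PCNA, CDC6, CCNE2, TK1, E2F1, FLI1 and CD99) were named for their role after their values were seen. The members and lists were chosen with earlier results of these data known, so no count over a list is independent evidence. Some lists share members, with SELE for example on both the NF-kB and the adhesion list, so their counts are not all of separate genes. Gene names were matched to RefSeq for 22113 symbols, and promoter sequences are RefSeq's (GRCh38.p14), a build other than that of the counts. Some genes are not reported here, though they stay in the fits and in counts over lists.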

Additional observations from a re-analysis of the deposited data

Results flagged for a closer look

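The response to interferon differed between doxycycline-treated cells and cells without doxycycline for 25 genes by the interaction in edgeR, each with an adjusted p under 0.05. The difference, the log2 change with doxycycline minus that without, was 1.07 for WARS and negative for the other genes. Among oligoadenylate synthetases and MX proteins it was -2.43 for OAS1, -4.0 for OAS2, -1.49 for OAS3, -3.25 for MX1 and -1.94 for MX2. Among other antiviral genes it was -2.42 for IFI6, -2.31 for IFI27, -2.14 for IFI44L, -1.01 for IFI44, -2.13 for IFIT1, -1.72 for IFIT3, -1.46 for IFITM1, -2.36 for XAF1, -3.75 for EPSTI1, -1.35 for SAMD9, -1.30 for DDX60, -1.01 for PLSCR1, -1.06 for ZC3HAV1 and -0.77 for SP110. Among genes of signalling, sensing and conjugation it was -1.99 for IRF9, -1.11 for DDX58, -0.95 for PARP9 and -1.87 for HERC6. IFITM genes are similar in sequence, and reads could be split between them.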

How the results depend on the processing

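Of the 132 named genes called between both treatments and doxycycline alone, 107 kept the call under every alternative fit and 25 lost it under at least 1. The threshold of a log2 change of at least 1 in size was left out of that tally. Genes that kept the call but lie under that threshold include USP6 (-0.52) and NFKB1 (0.82). The correction for GC content and length gave 1329 calls, 769 higher and 560 lower, and 53 for the difference between responses; with the replicate block as well these were 1411, 812, 599 and 55. Fitting only the libraries compared gave 73 lower genes, a log2 change of at least 1 gave 271 calls with 30 lower, and DESeq2 gave 42 genes for the difference. Without single libraries, calls ranged from 290 to 480, higher calls from 235 to 372, lower calls from 54 to 121 and calls of the difference from 9 to 20; the cause was not tested. The labels give no sign that replicate numbers pair the libraries, although deviations of equal numbers correlated (r = 0.51 between both treatments and doxycycline alone, 0.36 between interferon alone and untreated, across genes); the replicate block gave 408 calls, 310 higher and 98 lower, and 17 for the difference.

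Changes near 0 that were not called turned sign. IFNAR1 was at 0.00 with the stricter filter and with only the libraries compared, and between -0.14 and 0.12 without single libraries. IFNAR2 lay between -0.06 and 0.15 and TNFRSF10A between -0.10 and 0.15 without single libraries, with -0.00 for TNFRSF10A under the GC correction. SOCS3 lay between -0.23 and 0.37 and CD99 between -0.26 and 0.09, with 0.01 for CD99 under the GC correction with and without the block. Depth limits genes near 3 reads a library, such as interferon genes and CIITA.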

Other observations

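Called genes outside the lists, chosen after their values were seen, included further interferon-linked and cell surface genes. RARRES3, a phospholipase of the retinoid response, had 24.4 and 29.2 CPM with both treatments and 1.92 and 2.38 CPM with doxycycline alone (log2 3.63 ± 0.25), and the transcription factor BATF2 had 11.4 and 10.4 CPM against 1.25 and 1.36 CPM. The metallothionein MT2A had 19.3 and 28.6 CPM against 3.42 and 3.4 CPM. Its family members are similar in sequence. The costimulatory receptor TNFRSF9 had 18.2 and 18.4 CPM against 5.09 and 4.76 CPM, and CD38, an NAD-consuming ectoenzyme, 5.24 and 5.21 CPM against 0 and 0.425 CPM.

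Lower genes outside the lists, also chosen after their values were seen, included CHAF1A, CHAF1B, ASF1B and EXO1. The chromatin assembly subunits CHAF1A and CHAF1B had log2 changes of -0.58 ± 0.12 and -0.77 ± 0.11, and the histone chaperone ASF1B had 17.8 and 20.2 CPM with both treatments and 33.4 and 33.7 CPM with doxycycline alone (log2 -0.82 ± 0.13). The exonuclease EXO1 had 203 and 184 CPM against 285 and 267 CPM, a log2 change of -0.51 ± 0.09. CHAF1B kept its call when any single library was left out. ASF1B lost it without replicate 1 of both treatments, EXO1 without doxycycline-only replicate 1 or replicate 2 of both treatments, and CHAF1A without doxycycline-only replicate 2, replicate 1 of both treatments or either library of interferon alone, and with only the libraries compared.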
